A study of Mus musculus with 12 samples.

Results

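The data describe 33 genes of integrins and leukocyte adhesion molecules in mouse macrophages. They were taken by name from a list of integrin subunits, their ligands and counter-receptors, other adhesion receptors, tetraspanins, a matrix glycoprotein and the adaptors that bind integrin tails. They are 33 of 18194 genes named on the array, and each was read from a single probeset, chosen for the highest mean of 11 arrays. The cells were peritoneal macrophages of mice injected with thioglycollate, an irritant that draws leukocytes into the peritoneal cavity. They came from wild-type mice, from mice lacking IRAK2 (the IRAK2 knockout) and from mice lacking both IRAK1 and IRAK2 (the double knockout). Each genotype was measured unstimulated (0 h) and after 2, 4 and 8 h of MALP-2 at 100 ng/ml, a bacterial type of lipopeptide sensed by Toll-like receptors 2 and 6. All 12 groups had 1 array each. Strain, age, sex, the knockout alleles and whether cells of several mice were pooled are not stated in the sources used here. With 1 array a group, nothing in the data measures the spread between mice.

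Integrins are pairs of an alpha and a beta subunit that span the membrane and bind matrix proteins or receptors on other cells. Leukocytes carry the beta-2 pairs (LFA-1, Mac-1 and CD11c/CD18), which bind intercellular adhesion molecules, and alpha-4 and alpha-5 pairs, which bind VCAM-1 and fibronectin. Talin and kindlin-3 bind the beta tail and switch the pair to its high-affinity state. Vinculin and paxillin tie it to actin. IRAK1 and IRAK2 are kinases of the MyD88 complex that carry the signal from Toll-like receptors to NF-kB, whose known targets include Icam1 and Vcam1. Macrophages are known to attach and spread through these molecules.

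Levels are given on the log2 scale of the deposited values, on which 1 unit is a factor of 2, and are compared only within a probeset. The floor, the median of all values of 11 arrays, was 3.83. Of the 33 genes, 30 had a mean at or above it and were tested. Itga2, F11r and Pecam1 had means under it. The double-knockout 0 h array stood apart, with correlations of 0.764 to 0.804 with the other arrays, which correlated at 0.954 or more with each other. It entered no test, so the response of the double knockout to MALP-2 was not tested, and its level is given beside the others as a description. On stimulated double-knockout arrays the 5' minus 3' actin signal, which reflects how complete the labelled copies were, was −4.68 to −3.87, against −3.72 to −3.18 on the 8 arrays of the other genotypes. The Gapdh signal was −5.90 to −4.36 against −3.84 to −3.42. All 6 macrophage markers were above the floor on every array, and their summed linear signal was 21284 to 24596 on the wild-type and IRAK2-knockout arrays and 21491 to 21971 on stimulated double-knockout arrays. Defining markers of endothelial cells gave sums of 60.6 to 74.4 over 6 genes on those 11 arrays, with at most 1 gene above the floor. Markers of mesothelial and stromal cells gave 1996 to 2479 over 8 genes, with 5 to 6 above the floor and Col1a1 highest at 10.48 to 10.85. Platelet markers gave 965 to 1813 over 5 genes, with 2 to 5 above the floor and Pf4 highest at 9.73 to 10.74. The part of such cells in the adhesion levels was not tested. The Irak2 probeset read 5.77 to 6.69 in the wild type, 4.65 to 5.63 in the IRAK2 knockout and 4.61 to 5.19 in the stimulated double knockout. Of the 4 Irak1 probesets, the gap was widest in one that read 4.39 to 4.72 on stimulated double-knockout arrays and 5.44 to 5.94 on the other 8. In another the ranges met, at 8.11 to 8.31 against 8.31 to 8.59, though it was lower than in the wild type at each stimulated time. Whether these probes lie in the deleted parts is not stated in the sources used here.

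Wild-type and IRAK2-knockout cells responded to MALP-2 with changes in most of these transcripts. In a limma fit of the 8 wild-type and IRAK2-knockout arrays, 12 of the 30 rose and 6 fell (mean of 2, 4 and 8 h minus 0 h, adjusted p under 0.05 over all genes). Among all 10858 genes tested 18.8% rose and 28% fell, and these shares were not tested against each other. The same shares of all genes stand beside the MALP-2 counts given below for each group of adhesion genes. The median change was 0.11 over the 30 and −0.06 over all genes. A p-value here weighs the mean change against how far the 2 genotypes disagreed in their time courses. It measures neither constancy over the times nor the spread between mice. By size, 7 of the 30 had a wild-type mean at least 2-fold above 0 h (4.99% of all genes) and 2 at least 2-fold below (6.34%). In the IRAK2 knockout 6 were above (3.77%) and 1 below (3.84%).

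**Figure D1:**
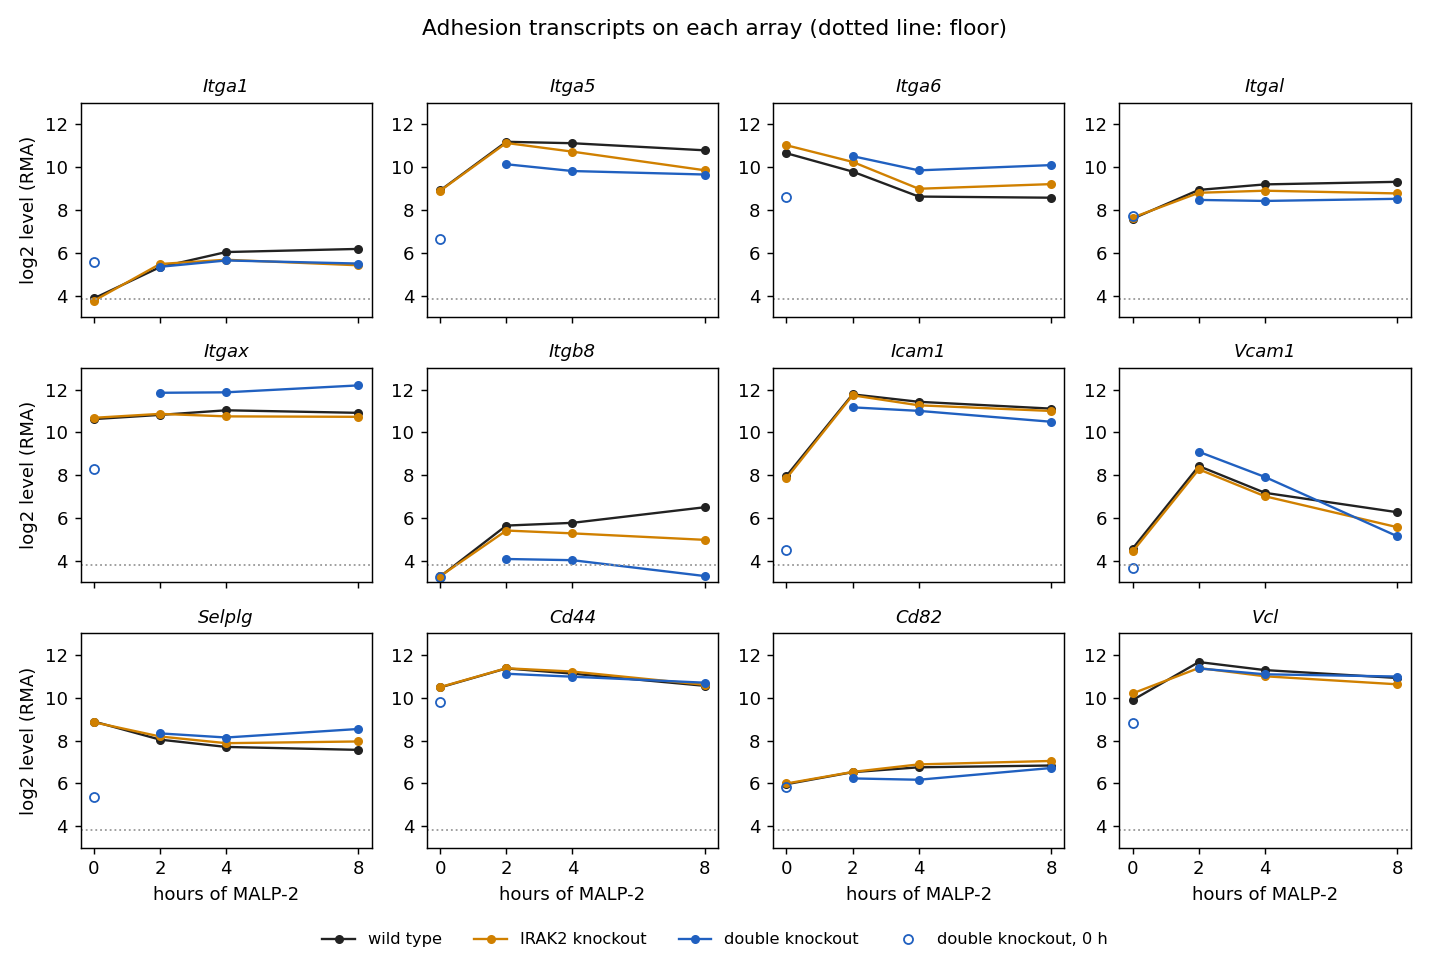
Log2 levels (RMA, vertical axes) of selected adhesion transcripts on each array against hours of MALP-2 (horizontal axes), 1 point per array, lines joining arrays of 1 genotype, the open circle the double-knockout 0 h array and the dotted line the floor. Icam1 rose from 7.97 to 11.78 in the wild type within 2 h, Itgb8 in the stimulated double knockout stayed between 3.30 and 4.10, and Itgax in the stimulated double knockout stood at 11.85 to 12.20.

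The 2 largest responses to MALP-2 were those of Icam1 and Vcam1. They encode immunoglobulin-type ligands of beta-2 integrins and of alpha-4 beta-1. Both rose, as did Jam2, a junctional molecule that binds alpha-4 beta-1, while Icam2 fell. All 4 members of this group that were tested passed, 3 upward and 1 downward. Icam1 read 7.97, 11.78, 11.43 and 11.11 at 0, 2, 4 and 8 h in wild-type cells, 7.86, 11.73, 11.27 and 11.003 in IRAK2-knockout cells and 4.53, 11.17, 11.01 and 10.50 in double-knockout cells. Every stimulated array, of any genotype, was at 10.50 or more and highest at 2 h, while the unstimulated wild-type and IRAK2-knockout arrays were below 8. The fitted response was 3.47 ± 0.08 (SE, adjusted p = 1.96e-07), a factor of 11.1. Vcam1 read 4.59, 8.43, 7.18 and 6.28 in wild-type cells, 4.45, 8.28, 7.02 and 5.58 in IRAK2-knockout cells and 3.68, 9.10, 7.92 and 5.16 in double-knockout cells. It was highest at 2 h in each genotype and had lost part of that rise by 8 h. Its response was 2.61 ± 0.13 (SE, adjusted p = 5.05e-06). The 2 other Vcam1 probesets gave smaller wild-type responses, 0.55 and 0.83 against 2.71 for the one used.

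Jam2 read 3.86, 4.77, 4.74 and 4.77 in wild-type cells, 4.07, 5.11, 4.78 and 4.63 in IRAK2-knockout cells and 4.57, 5.70, 5.25 and 4.56 in double-knockout cells. Its unstimulated levels in the first 2 genotypes lie near the floor. Its response was 0.83 ± 0.11 (SE, adjusted p = 0.000497), and 0.35 with the mean of all its probesets. Icam2, the constitutive ligand of LFA-1, read 4.65, 4.35, 4.10 and 4.19 in wild-type cells, 4.51, 4.14, 4.24 and 4.25 in IRAK2-knockout cells and 3.99, 3.98, 4.06 and 4.44 in double-knockout cells, all close to the floor. Its fall was −0.37 ± 0.10 (SE), less than a factor of 2. F11r (JAM-A) lay under the floor on average, with values of 3.24 to 4.11 on the 11 arrays, and was not tested.

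The promoter windows of 23 of the 33 genes are in the RefSeq table used here (29 windows, mouse build GRCm38.p6), each the 250 bases before an annotated start. They are shown for 4 genes: Icam1, Itgb8 and Itga5, which had the largest responses to MALP-2 among genes with a window, and Itgax, which among them stood furthest above the wild type in the stimulated double knockout. Capitals mark matches to 3 motifs searched on both strands: a general kappa-B pattern, GGGNNNNNCC, a stricter kappa-B pattern of the RelA type, GGAANTTCC, and the core of the PU.1 motif, GAGGAA. The windows run 5' to 3' in the sense of the gene, at chr9:21015690-21015939 (plus strand) for Icam1, chr12:119238277-119238526 (minus) for Itgb8, chr15:103366792-103367041 (minus) for Itga5 and chr7:128129300-128129549 (plus) for Itgax.
Icam1: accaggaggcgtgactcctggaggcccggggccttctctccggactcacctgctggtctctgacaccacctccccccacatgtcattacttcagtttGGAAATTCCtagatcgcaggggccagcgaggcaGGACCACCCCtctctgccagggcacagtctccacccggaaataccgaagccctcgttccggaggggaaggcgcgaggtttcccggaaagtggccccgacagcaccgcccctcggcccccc
Itgb8: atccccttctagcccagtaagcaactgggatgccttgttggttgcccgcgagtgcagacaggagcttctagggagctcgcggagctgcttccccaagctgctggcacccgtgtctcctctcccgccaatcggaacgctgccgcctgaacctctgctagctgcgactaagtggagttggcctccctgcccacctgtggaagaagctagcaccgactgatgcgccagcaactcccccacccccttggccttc
Itga5: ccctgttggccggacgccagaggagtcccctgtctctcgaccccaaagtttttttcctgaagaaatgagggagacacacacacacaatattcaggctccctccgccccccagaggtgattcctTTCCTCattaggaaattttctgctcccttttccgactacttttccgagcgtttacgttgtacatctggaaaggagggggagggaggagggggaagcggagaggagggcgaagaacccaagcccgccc
Itgax: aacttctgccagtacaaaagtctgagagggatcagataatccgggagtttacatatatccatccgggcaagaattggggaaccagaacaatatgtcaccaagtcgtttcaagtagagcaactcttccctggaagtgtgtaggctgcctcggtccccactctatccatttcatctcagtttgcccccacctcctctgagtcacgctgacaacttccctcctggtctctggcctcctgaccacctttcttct
The Icam1 window held a RelA-type match, GGAAATTCC, with its first base at −153 from the start, and a general kappa-B match on the minus strand at −120, the marked run GGACCACCCC. The RelA-type pattern was added after the sequences were seen. It occurred in 0.813% of 32851 windows in the table and in 1 of the 29 windows of adhesion genes. The general pattern occurred in 45.8% of all windows and in 18 of the 29 (15 genes), and the PU.1 core in 23.3% of all and 8 of the 29. The Itga5 window held a PU.1 core on the minus strand at −127 and no kappa-B match. The windows of Itgb8 and Itgax held none of the 3 patterns, which says only that these letters are not in these 250 bases.

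Among the integrin alpha subunits, Itga1, Itga4, Itga5 and Itgal rose after MALP-2 and Itga6 fell, 5 of 9 tested. Itga5, the alpha subunit of the classical fibronectin receptor, read 8.91, 11.18, 11.12 and 10.79 in wild-type cells, 8.90, 11.13, 10.72 and 9.86 in IRAK2-knockout cells and 6.67, 10.14, 9.82 and 9.66 in double-knockout cells. Its response was 1.89 ± 0.17 (SE, adjusted p = 8.19e-05), a factor of 3.71. The 8 h level minus the 2 h level was −1.27 in the IRAK2 knockout and −0.40 in the wild type. Itga1, which forms a collagen receptor with beta-1, read 3.88, 5.34, 6.04 and 6.19 in wild-type cells, 3.76, 5.48, 5.68 and 5.42 in IRAK2-knockout cells and 5.56, 5.35, 5.65 and 5.50 in double-knockout cells. Before stimulation it stood at the floor in the first 2 genotypes, and it was above 5 on every stimulated array. The response was 1.87 ± 0.16 (SE, adjusted p = 6.39e-05). Itgal, the alpha chain of LFA-1, read 7.60, 8.94, 9.20 and 9.32 in wild-type cells, 7.65, 8.81, 8.90 and 8.78 in IRAK2-knockout cells and 7.72, 8.47, 8.42 and 8.52 in double-knockout cells. The stimulated wild-type arrays were the highest and those of the double knockout the lowest, with no overlap among the 3 genotypes. Its response was 1.37 ± 0.12 (SE, adjusted p = 7.42e-05).

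Itga6, a laminin receptor subunit, went the opposite way. It read 10.65, 9.79, 8.63 and 8.58 in wild-type cells, 11.02, 10.25, 8.99 and 9.21 in IRAK2-knockout cells and 8.59, 10.52, 9.85 and 10.10 in double-knockout cells. In the genotypes with IRAK1 it was lower at each stimulated time than at 0 h, with a fitted change of −1.60 ± 0.09 (SE, adjusted p = 1.12e-05), a factor of 3.02. Itga4, which pairs with beta-1 or beta-7, read 9.46, 9.81, 9.81 and 10.10 in wild-type cells, 9.36, 9.59, 9.38 and 9.65 in IRAK2-knockout cells and 8.32, 9.78, 9.50 and 9.42 in double-knockout cells. By the probeset used its rise was 0.31 ± 0.10 (SE). That call was lost without the 2 h arrays (0.33, adjusted p = 0.0555) or the 8 h arrays (0.24, adjusted p = 0.0855). The mean of all its probesets gave 0.40 and was called (adjusted p = 0.00448). The 4 Itga4 probesets above the floor gave wild-type rises of 0.15 to 1.17, against 0.44 for the one used. Itgax, Itgam, Itga9 and Itgae were not called in this fit. Itgae (CD103, which pairs with beta-7) stayed between 3.57 and 4.23 on the 11 arrays, at the floor.

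Of the 4 beta subunits, Itgb8 and Itgb1 rose and Itgb7 fell. Itgb8, which pairs with alpha-v to activate latent TGF-beta, read 3.28, 5.65, 5.78 and 6.51 in wild-type cells, 3.29, 5.42, 5.29 and 4.99 in IRAK2-knockout cells and 3.26, 4.10, 4.04 and 3.30 in double-knockout cells. All 3 unstimulated levels were under the floor. With MALP-2 it climbed highest in the wild type, reached less in the IRAK2 knockout and stayed near the floor in the double knockout. Its fitted response was 2.32 ± 0.25 (SE, adjusted p = 0.000201), with means of 2.70 in the wild type and 1.94 in the IRAK2 knockout. Itgb1, the common partner of alpha-1, alpha-4, alpha-5 and alpha-6, read 7.996, 8.75, 8.93 and 8.80 in wild-type cells, 8.21, 8.90, 8.98 and 8.68 in IRAK2-knockout cells and 6.65, 8.63, 8.68 and 8.44 in double-knockout cells, a response of 0.74 ± 0.10 (SE, adjusted p = 0.000496). Itgb7 read 6.87, 6.79, 6.51 and 6.03 in wild-type cells, 6.98, 7.14, 6.65 and 6.13 in IRAK2-knockout cells and 5.13, 6.52, 6.31 and 6.79 in double-knockout cells. In the genotypes with IRAK1 it was lowest at 8 h. Its fall was −0.38 ± 0.09 (SE), and without the 8 h arrays it was −0.15 and not called (adjusted p = 0.227). Itgb2, the beta chain of LFA-1, Mac-1 and CD11c/CD18, stayed between 11.17 and 11.72 on the 11 arrays and was not called in any of the main comparisons.

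Selplg and Cd44, which serve rolling and matrix contact, moved in opposite directions. Selplg (PSGL-1), the main selectin ligand of leukocytes, read 8.89, 8.05, 7.70 and 7.57 in wild-type cells, 8.86, 8.19, 7.88 and 7.96 in IRAK2-knockout cells and 5.36, 8.34, 8.14 and 8.54 in double-knockout cells. All 6 stimulated arrays of the first 2 genotypes were below their own 0 h array, and the fitted change was −0.98 ± 0.10 (SE, adjusted p = 0.000159). Cd44, the hyaluronan receptor, read 10.48, 11.37, 11.12 and 10.56 in wild-type cells, 10.50, 11.38, 11.22 and 10.60 in IRAK2-knockout cells and 9.79, 11.12, 10.98 and 10.70 in double-knockout cells. It was highest at 2 h and nearly back to its 0 h level at 8 h in the wild type and the IRAK2 knockout. The mean change was 0.55 ± 0.08 (SE, adjusted p = 0.000955). Alcam, a homophilic receptor that also binds CD6, and Cd47, the ligand of SIRP-alpha, were not called in any of the main comparisons. Their 11-array ranges were 12.43 to 12.80 and 10.31 to 10.68. Pecam1, a homophilic receptor of endothelium and leukocytes, lay under the floor at 3.23 to 3.65.

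Tetraspanins, membrane organisers that associate with integrins, were called after MALP-2 in 3 of 4 cases, 1 rising and 2 falling. Cd82, the one that rose, read 5.97, 6.53, 6.75 and 6.84 in wild-type cells, 5.998, 6.54, 6.89 and 7.05 in IRAK2-knockout cells and 5.84, 6.24, 6.17 and 6.72 in double-knockout cells, a response of 0.78 ± 0.09 (SE, adjusted p = 0.000221). Cd151, a partner of the laminin-binding integrins, read 10.56, 10.04, 10.12 and 10.01 in wild-type cells, 10.62, 10.12, 10.18 and 10.18 in IRAK2-knockout cells and 10.26, 10.13, 10.29 and 10.31 in double-knockout cells. Each stimulated array of the first 2 genotypes was lower than its 0 h array, and the fall was −0.48 ± 0.08 (SE). Cd9 read 10.34, 10.10, 10.12 and 9.67 in wild-type cells, 10.22, 10.03, 10.08 and 9.85 in IRAK2-knockout cells and 4.06, 9.94, 9.97 and 9.54 in double-knockout cells. Its fall was −0.30 ± 0.09 (SE), and without the 8 h arrays it was −0.20 and not called (adjusted p = 0.0995). Cd81 (9.16 to 9.99 on the 11 arrays) was not called in any of the main comparisons, nor was Emilin2, an extracellular matrix glycoprotein (9.51 to 10.15).

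Of the 4 intracellular adaptors, only Vcl passed the test for a MALP-2 response. Vcl (vinculin) read 9.89, 11.66, 11.29 and 10.92 in wild-type cells, 10.20, 11.39, 11.001 and 10.63 in IRAK2-knockout cells and 8.81, 11.37, 11.09 and 10.99 in double-knockout cells. It was highest at 2 h in each genotype and declined to 8 h. The response was 1.10 ± 0.13 (SE, adjusted p = 0.00034), and the mean rise of 1.40 in the wild type against 0.80 in the IRAK2 knockout put only the former past 2-fold. Tln1 (talin-1) and Pxn (paxillin) were not called in any of the main comparisons. Tln1 ranged from 9.66 to 10.14 on the 11 arrays and Pxn from 8.32 to 9.74.

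**Figure D2:**
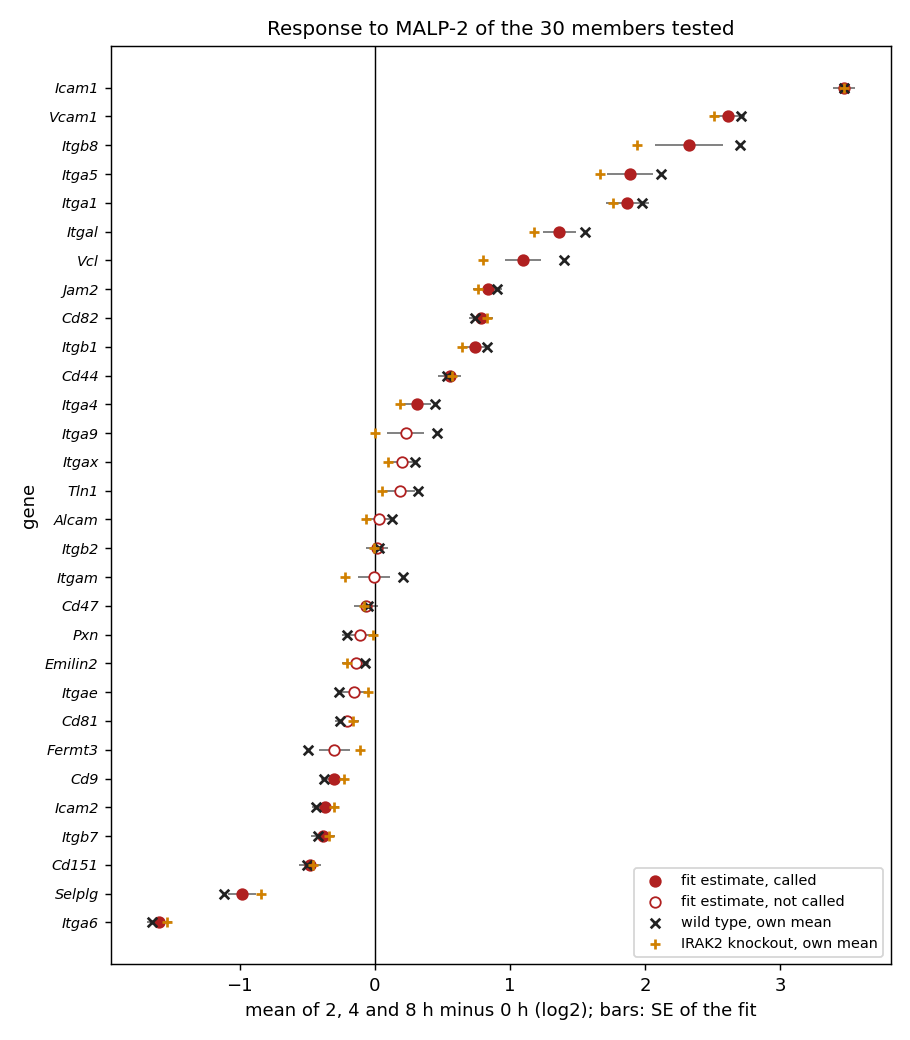
Response to MALP-2 of the 30 tested genes (vertical axis), as the mean of 2, 4 and 8 h minus 0 h on the log2 scale (horizontal axis), with the limma estimate over wild type and IRAK2 knockout (filled where called, bars SE) and each genotype's own mean. Icam1, Vcam1 and Itgb8 lie farthest right at 3.47, 2.61 and 2.32, and Itga6 farthest left at −1.60.

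No adhesion gene was called for loss of IRAK2 alone. In the limma fit of the 9 stimulated arrays, with genotype and time as additive factors, 0 of 30 were called between the IRAK2 knockout and the wild type, and 7 had an unadjusted p under 0.05, as had 1482 of all 10858 genes. Among all genes 0.414% were called higher and 0.35% lower, so a count of 0 among 30 stands close to that background. The 7 were Itga4, Itga5, Itga6, Itgal, Itgb8, Fermt3 and Vcl. The differences of largest size were −0.75 ± 0.28 (SE) for Itgb8, 0.48 ± 0.16 (SE) for Itga6, 0.47 ± 0.11 (SE) for Fermt3 and −0.46 ± 0.17 (SE) for Itga5. For Itgb8 the differences at 2, 4 and 8 h were −0.23, −0.49 and −1.52, and for Itga5 −0.05, −0.39 and −0.93, in both the greatest deficit being at 8 h. Fitted on these 2 genotypes alone, Fermt3 and Itga6 were called, both higher in the IRAK2 knockout, and 565 genes in all against 83. The median difference was −0.03 over the 30 and 0.02 over all genes.

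The double knockout differed from the wild type in 10 of the 30, 4 higher (Itga6, Itgax, Selplg and, by the probeset used, Fermt3) and 6 lower (Itgb8, Itga5, Itgam, Itgal, Itga9 and Icam1). These shares stand against 23.8% of all genes higher and 17.4% lower. The median difference was −0.08 over the 30 and 0.07 over all genes. The comparisons of both knockouts with the wild type share the wild-type arrays. In bulk RNA a smaller number of cells of a type and less RNA per cell cannot be told apart.

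Itgb8 showed the greatest deficit. At 2, 4 and 8 h the double knockout differed by −1.56, −1.74 and −3.21 and the fitted difference was −2.17 ± 0.28 (SE, adjusted p = 0.000577), a factor of 4.5. Its stimulated levels of 3.30 to 4.10 straddle the floor, and they did not overlap those of the wild type (5.65 to 6.51) or of the IRAK2 knockout (4.99 to 5.42). Itga5 differed by −1.05, −1.30 and −1.13 at the 3 times, with a fitted difference of −1.16 ± 0.17 (SE, adjusted p = 0.0012). The 4 Itga5 probesets above the floor all gave lower levels, by 1.16 to 2.02. Itgal, of LFA-1, differed by −0.47, −0.77 and −0.79, a difference of −0.68 ± 0.12 (SE, adjusted p = 0.00254), and its second probeset gave −1.33. Icam1, the ligand of LFA-1, differed by −0.61, −0.42 and −0.61, a difference of −0.55 ± 0.11 (SE, adjusted p = 0.00461), while still standing at 10.50 or more. Vcam1 did not pass, at 0.09 ± 0.32 (SE) (adjusted p = 0.833), and its 3 differences of 0.67, 0.74 and −1.12 changed sign at 8 h.

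Itgam, the alpha chain of Mac-1, read 4.96, 5.28, 5.21 and 5.03 in wild-type cells, 5.20, 4.96, 5.16 and 4.82 in IRAK2-knockout cells and 4.38, 4.51, 3.82 and 4.86 in double-knockout cells. The difference was −0.78 ± 0.23 (SE, adjusted p = 0.027). Without the 2 h arrays it was −0.78 and not called (adjusted p = 0.111), and without the 4 h arrays −0.47 and not called (0.141). Its 1 named probeset lies close to the floor in all genotypes. Itga9, which binds tenascin-C and VCAM-1 as a pair with beta-1, read 4.19, 4.30, 5.08 and 4.56 in wild-type cells, 4.36, 4.32, 4.57 and 4.18 in IRAK2-knockout cells and 3.97, 3.91, 3.91 and 4.27 in double-knockout cells. The difference of −0.62 ± 0.18 (SE, adjusted p = 0.0246) was −0.73 without the 2 h arrays (adjusted p = 0.0535) and −0.34 without the 4 h arrays (0.241), neither called. The 2 other Itga9 probesets gave 0.14 and 0.15.

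Itgax (CD11c), the alpha chain of CD11c/CD18, was higher in the double knockout. It read 10.62, 10.82, 11.03 and 10.91 in wild-type cells, 10.68, 10.87, 10.75 and 10.73 in IRAK2-knockout cells and 8.32, 11.85, 11.87 and 12.20 in double-knockout cells. The stimulated double-knockout arrays were all above every array of the other genotypes, and the fitted difference was 1.05 ± 0.13 (SE, adjusted p = 0.000501). Itga6 was higher by 0.72, 1.22 and 1.52 at 2, 4 and 8 h, a difference of 1.15 ± 0.16 (SE, adjusted p = 0.000814), and its other probeset gave 0.14. Both Itga6 and Selplg fell after MALP-2 where IRAK1 was present. Selplg was higher by 0.29, 0.44 and 0.98, a difference of 0.57 ± 0.14 (SE, adjusted p = 0.0123), which was not called without the 4 h arrays (0.63, adjusted p = 0.0705) or without the 8 h arrays (0.36, adjusted p = 0.0598). Fermt3 (kindlin-3, the kindlin of blood cells) read 10.05, 9.30, 9.48 and 9.90 in wild-type cells, 10.14, 9.69, 10.11 and 10.29 in IRAK2-knockout cells and 8.95, 9.74, 9.89 and 10.20 in double-knockout cells. Its difference was 0.39 ± 0.11 (SE), not called without the 2 h arrays (0.36, adjusted p = 0.107) or the 4 h arrays (0.37, adjusted p = 0.150), and 2 further probesets above the floor gave −0.26 and −0.56. With probesets ending in _x_at or _s_at left out, Fermt3 was read from the latter and was called in the opposite direction, at −0.56 (adjusted p = 0.00897), so its direction depends on the probeset. The mean of all probesets gave −0.16 for Fermt3 and −0.11 for Itga9, neither called. Without the 4 h arrays 6 of the 30 were called, beside 19.5% of all genes.

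**Figure D3:**
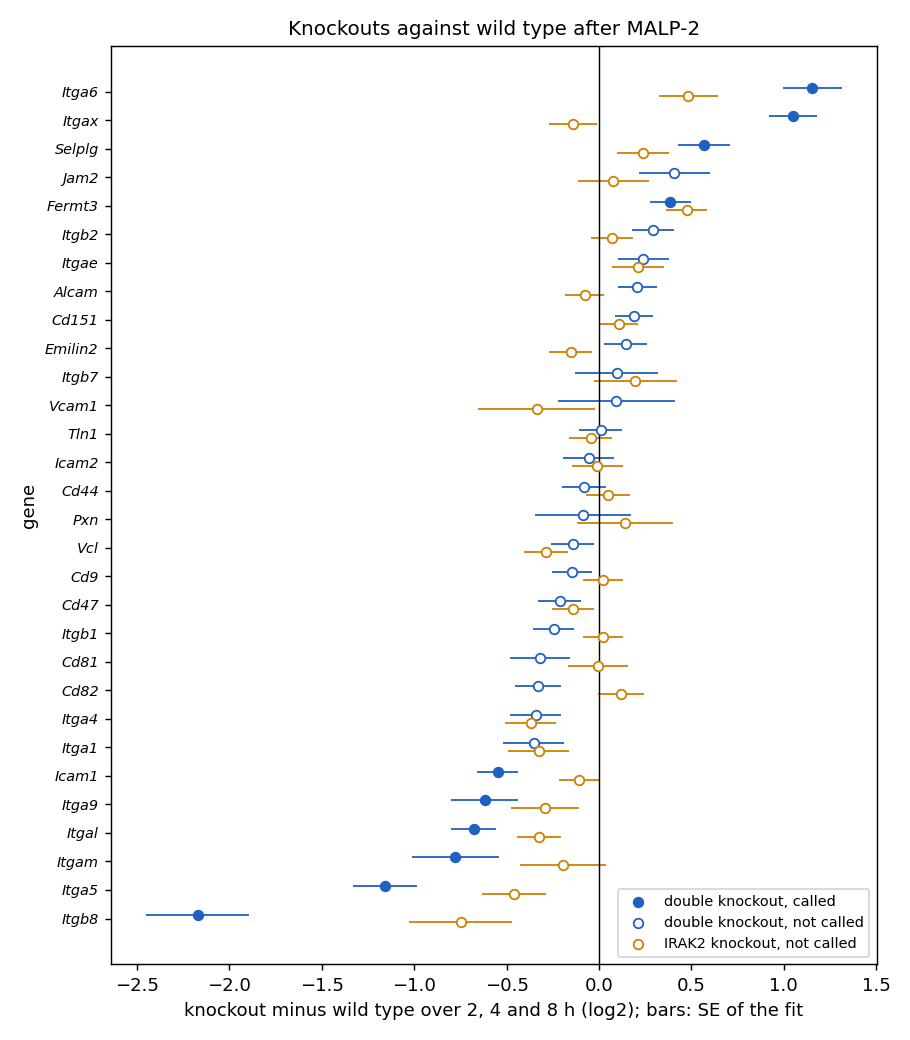
Difference of each knockout from the wild type over 2, 4 and 8 h for the 30 tested genes (vertical axis), on the log2 scale (horizontal axis), with bars for the SE of the limma fit and filled points for called genes. No point of the IRAK2 knockout is filled, while the double knockout runs from −2.17 for Itgb8 to 1.15 for Itga6.

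Between the double and the IRAK2 knockout, 2 of the 30 were higher (Itgax and Itga6) and 5 lower (Itgb8, Itga5, Cd82, Icam1 and Itgal), against 22.1% and 16.8% of all genes. The median difference was −0.06 over the 30 and 0.06 over all genes. Itgb8 differed by −1.42 ± 0.28 (SE, adjusted p = 0.00459) and Itgax by 1.19 ± 0.13 (SE, adjusted p = 0.000347). Both were called whichever time was left out. Itga5 differed by −0.70 ± 0.17 (SE, adjusted p = 0.0132), and lost its call without the 2 h arrays (−0.55, adjusted p = 0.0823) or the 4 h arrays (−0.60, adjusted p = 0.138). Itga6 differed by 0.67 ± 0.16 (SE, adjusted p = 0.0108), and lost its call without the 4 h arrays (0.58, adjusted p = 0.125) or with the mean of its probesets (0.36, adjusted p = 0.117). Cd82, the tetraspanin that rose with MALP-2, differed by −0.45 ± 0.13 (SE), Icam1 by −0.44 ± 0.11 (SE) and Itgal by −0.35 ± 0.12 (SE). Cd82 was not called without the 2 h arrays (−0.52), without the 4 h arrays (−0.32) or with the mean of its probesets (−0.19). Icam1 and Itgal were each called only with all 3 times, at −0.53 to −0.38 and −0.41 to −0.29 with 1 time left out. Without the 2 h arrays 3 of the 30 were called, beside 27.7% of all genes, and without the 4 h arrays 2, beside 14.5%.

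No member was called for a change of the genotype difference from 2 to 8 h. The slope against log2 time was tested with limma for each knockout against the wild type, and 0 of 30 passed in either, against 0.00921% of all genes (1 gene) in each. At an unadjusted p under 0.05 there were 3 for the IRAK2 knockout (Itga1, Itga5 and Itgb8, all with falling differences) and 5 for the double knockout (Itgb7, Itgb8, Vcam1, Jam2 and Pxn). Over all genes there were 291 and 974. For Vcam1 in the double knockout the slope was −0.89 ± 0.28 (SE) log2 per doubling of time (adjusted p = 0.472), the slope of largest size among these.

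Probesets of 1 gene differed more in the double-knockout comparison than in the others. Of the 33 genes, 17 had 2 or more probesets with means at or above the floor. The difference between double knockout and wild type spanned at least 1 log2 among probesets of 1 gene in 5 of them (Itga4, Itga6, Cd44, Cd47 and Pxn), with a median span of 0.82. The difference between IRAK2 knockout and wild type spanned that much in 0, with a median of 0.22. The wild-type response to MALP-2 did in 3 (Itga4, Itga5 and Vcam1), with a median of 0.60. Cd44 gave −0.08 with the probeset used and −1.20 and −1.62 with the others. Tln1 gave 0.01 and −0.97. In 11 of the 17 the probeset used held the highest difference, and in 9 the probesets did not share a sign.

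**Figure D4:**
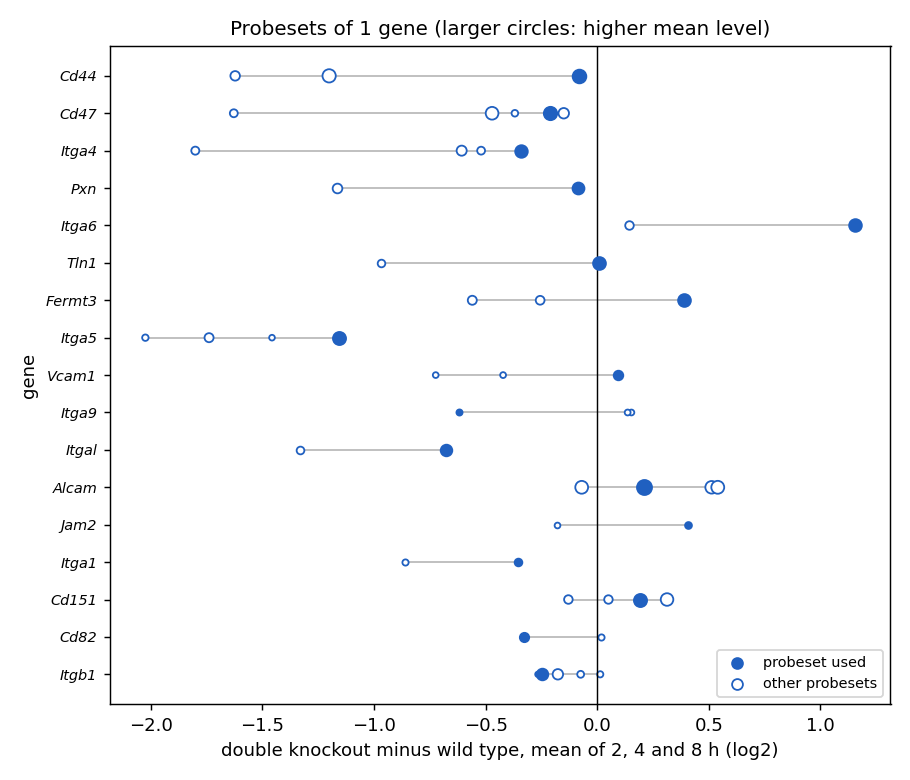
Double knockout minus wild type, mean of 2, 4 and 8 h on the log2 scale (horizontal axis), for every probeset at or above the floor of the 17 genes with 2 or more (vertical axis), the probeset used filled. The points of Cd44 reach from −1.62 to −0.08, and those of Itga5 all lie at −1.16 or lower.

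Some marker lists of other leukocytes gave different sums in the double knockout, each carried by few genes. The summed linear signal of 6 neutrophil markers was 611 to 738 on its stimulated arrays, 1492 to 2202 in the wild type and 1269 to 1916 in the IRAK2 knockout, with 2 to 3 of the 6 above the floor on each of those arrays and Mpo, Elane and Ngp under it. S100a8 carried most of these sums, at 9.09 to 9.41, 10.48 to 11.03 and 10.23 to 10.84 in the same order. S100a9 stayed at 3.48 to 4.15 on these arrays. Camp was lower in the double knockout than in the wild type at each stimulated time. Neutrophils also carry Itgal, Itgam and Selplg. The 7 markers of resident large peritoneal macrophages summed to 836 to 1256 in the stimulated double knockout, 1422 to 3341 in the wild type and 2374 to 4787 in the IRAK2 knockout. That list did not move as one. At each stimulated time Cxcl13 (7.81 to 9.47 against 11.10 to 11.50) and Serpinb2 were lower in the double knockout than in the wild type. Prg4 (8.35 to 8.91 against 6.22 to 6.78), Selp and Lyve1 were higher, and Timd4 and Gata6 changed direction between times. The 9 markers of mast cells and eosinophils summed to 280 to 345 in the stimulated double knockout. Their sums were 145 to 257 in the wild type and 146 to 243 in the IRAK2 knockout. Siglecf was the highest of them on each array, at 7.36 to 7.81, 5.76 to 7.30 and 5.77 to 7.15 in the same order. Siglecf, Cpa3 and Kit were higher in the double knockout than in the wild type at each stimulated time, and Tpsb2 changed direction. Mcpt4, Fcer1a, Prg2, Epx and Ccr3 were under the floor on these arrays. Of 6 dendritic cell markers, 1 to 2 were above the floor. The sum at 2, 4 and 8 h was 196, 150 and 121 in the double knockout, 163, 100.6 and 95.3 in the wild type and 131, 98.2 and 99.3 in the IRAK2 knockout. That difference was mostly Zbtb46, at 7.14, 6.61 and 6.15 in the double knockout and 6.77, 5.51 and 5.25 in the wild type. Dpp4, near the floor, was lower in the double knockout than in the wild type at each of these times. Among these markers Flt3, Xcr1, Cd209a and Ccr7 were under the floor on all 12 arrays. The 6 B cell markers summed to 109 to 138 in the IRAK2 knockout, 163 to 327 in the wild type and 170 to 251 in the stimulated double knockout. Ighm was the highest of them on each array, at 5.36 to 5.95, 6.37 to 7.92 and 6.67 to 7.56 in the same order. Cd79a and Cd79b were lower in the double knockout than in the wild type at each stimulated time, and Ighm was not. The T and NK cell list stayed at 65.2 to 80.0 over 6 genes on all 11 arrays. The part of cell composition and of the 5' to 3' signal in the differences of Itgal, Itgam, Itgax, Itga6 and Selplg was not tested.

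The wider adhesion machinery was read from a list of 65 further genes, of which 56 had a probeset and 43 were tested, covering other integrins, their kinases, adaptors and matrix ligands. After MALP-2, 12 rose and 9 fell, against 18.8% and 28% of all genes. The largest were Vasp, an actin regulator of focal adhesions at 2.35 ± 0.10 (SE), Itgb5 at −1.83 ± 0.09 (SE) and the paxillin relative Lpxn at −1.75 ± 0.16 (SE). Against the wild type the double knockout was higher in 10 and lower in 12, beside 23.8% and 17.4% of all genes. The largest were Itgb3 at 2.67 ± 0.23 (SE), Thbs1 at −1.44 ± 0.16 (SE) and Vasp at −1.20 ± 0.13 (SE). Against the IRAK2 knockout 9 were higher and 9 lower, beside 22.1% and 16.8% of all genes. These were led by Itgb3 at 2.20 ± 0.23 (SE), Thbs1 at −1.64 ± 0.16 (SE) and the tetraspanin Cd37 at −1.04 ± 0.16 (SE). For the IRAK2 knockout against the wild type, 0 of 43 were called, with 5 at an unadjusted p under 0.05. Of all genes 0.414% were called higher and 0.35% lower there. Itgb3, the beta-3 subunit that pairs with alpha-v, read 5.86, 5.07, 4.47 and 4.32 in wild-type cells, 6.11, 5.64, 4.62 and 5.02 in IRAK2-knockout cells and 4.52, 7.13, 7.11 and 7.64 in double-knockout cells. It was lower at each later time in the wild type and stood above 7 on the 3 stimulated double-knockout arrays. Thbs1, the matrix protein thrombospondin-1 that binds CD47, read 8.48, 9.41, 8.64 and 8.26, 8.69, 9.80, 9.03 and 8.09 and 3.99, 8.15, 6.98 and 6.86 in the same order, lower in the double knockout at each stimulated time.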

How the data were processed

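Total RNA was extracted with Trizol, amplified with the NuGEN Ovation system and hybridised as biotinylated cRNA to Affymetrix arrays, per the labels' protocols. The deposited values are log2 levels of 45101 probesets, made with RMA per the submitters' processing notes; RMA makes the arrays' distributions equal, so a change shared by most genes is removed. Of the probesets, 34958 had 1 gene symbol, 932 several and 9211 none, and 34754 were brought up to date through the gene reference. The members and lists were chosen with earlier results of these data known.

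Each gene was read from its probeset with the highest mean over 11 arrays, and the 10858 genes whose mean reached the floor were fitted with limma 3.58.1 (lmFit, eBayes, Benjamini-Hochberg). Genotype differences used the 9 stimulated arrays with genotype and time as factors (4 residual degrees of freedom), the MALP-2 response the 8 wild-type and IRAK2-knockout arrays (3). Scripts were tested on simulated data. The number of arrays limits the precision. Every array value is given for members called in any comparison or at least 2-fold from 0 h, with full test statistics from 0.5 log2; from the other adhesion genes, the 3 largest called differences are named. Alternatives were another probeset rule, centring, floor, prior, set of arrays and leaving out each time. Proteins were not analysed here.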

Additional observations from a re-analysis of the deposited data

How the results depend on the processing

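The 35 called differences of members had 413 values under the alternatives, of which 358 kept their direction and their call, 48 kept only their direction and 7 reversed. Fermt3 in the double knockout against the wild type reversed with the probesets ending in _x_at or _s_at left out (−0.56, called) and with the mean of all probesets (−0.16). The other 5 reversed with all 12 arrays, which adds the double-knockout 0 h array: Selplg against the wild type (−0.46), Itga6 against the IRAK2 knockout (−0.11) and the MALP-2 responses of Selplg (0.34), Cd9 (1.72) and Itgb7 (0.21), none of them called there. With all 12 arrays the members called were 2 in place of 10 for the double knockout against the wild type, 0 in place of 7 against the IRAK2 knockout (1012 of all genes in place of 4219) and 10 in place of 18 for MALP-2. Leaving out a time gave 6 to 12 called members against the wild type, beside 19.5% to 37.3% of all genes. Against the IRAK2 knockout it gave 3 without the 2 h arrays and 2 without the 4 h arrays (27.7% and 14.5% of all genes). Without the 8 h arrays it gave 10 (36.9%). Of all genes, the IRAK2 knockout differed from the wild type in 83, in 6 to 14 with a time left out, in 6 with all 12 arrays, in 46 without the _x_at and _s_at probesets, in 143 with the 0 h arrays of 2 genotypes added and in 565 with only the 2 genotypes compared (2 members in place of 0). The double knockout differed from the wild type in 4471 genes, 1166 with all 12 arrays and 2114 without the 4 h arrays. Against the IRAK2 knockout it was 1572 without the 4 h arrays. MALP-2 changed 5081 genes, 1004 with all 12 arrays. Using the mean of all probesets, Itga9 and Fermt3 lost their call against the wild type, and Itga6 (0.36) and Cd82 (−0.19) against the IRAK2 knockout. Cd44, Cd47, Itga1, Itga4, Itgb2 and Tln1 gained one against the wild type. That gave 14 called members, 4 higher and 10 lower, beside 37.5% of all genes. Cd44, Cd47, Fermt3 and Itga4 gained one against the IRAK2 knockout, giving 9, beside 33.2% of all genes. Alcam, Cd81, Emilin2 and Pxn, not called in the main comparisons, were each called in some other settings. The slopes called 0 members in all settings, including time as a factor, which was chosen after seeing the data, and the double-knockout slope called 1 to 15 of all genes.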
